A study of Mus musculus with 16 samples.

Results

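The genes described here mark monocytes that enter an injured liver and the macrophages that they become, among them the lipid-associated macrophages of fatty liver. They were 10 of the 33269 gene names on the array: Ccr2, Ly6c1, Cx3cr1, Csf1r, Adgre1, Trem2, Gpnmb, Msr1, Lgals3 and Ctss. Their probes were found by the accession in the scanner files, and the brightest probe stood for a gene that had several.

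Gene expression was measured on 16 one-colour arrays, 1 for each RNA sample, from female C57Bl/6 mice with liver cirrhosis. All of the mice had been fed an atherogenic high-fat diet for 40 weeks, so no group shows the genes in a healthy liver. The 4 groups, of 4 arrays each, were inflammatory cells of the liver from ADSC mice, the same cell fraction from PBS mice, whole liver from ADSC mice and whole liver from PBS mice. ADSC mice had received adipose tissue-derived stem cells, which were cultured from the inguinal fat of GFP-transgenic donors, in 2 injections of 100000 cells beneath the splenic capsule, and tissue was collected 2 weeks after the second. PBS mice were labelled as treated with phosphate-buffered saline. The numbers on the arrays run from 7 to 10 for ADSC and from 11 to 14 for PBS. Whether each array stands for an animal of its own is not stated in the labels, and p-values here therefore reflect only how these samples vary, which may be partly technical.

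Classical monocytes leave the bone marrow through the chemokine receptor Ccr2, carry Ly6C on their surface, and enter injured liver in answer to the ligand Ccl2. As they mature into macrophages they depend on signalling through Csf1r and gain the adhesion receptor that Adgre1 encodes. In steatohepatitis many of them take on a lipid-associated state, marked by the lipid-sensing receptor Trem2, by Gpnmb and by lysosomal and lipid-handling genes.

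Levels are log2 signals minus the array's 75th percentile, so a value of 0 is a signal at that percentile, and values of different genes are not compared with each other. The probes chosen for all 10 genes were well above background on all 16 arrays. Between 51.6% and 66.3% of the spots of an array were well above background, and the 75th percentile lay between 123.8 and 551.9 intensity units. The labels were checked against marker lists. The mean level of 9 hepatocyte genes was 0.03 to 2.21 on the 8 inflammatory cell arrays, against 5.11 to 6.11 on the 8 liver arrays. That of 10 T and NK cell genes was 1.37 to 2.25 on the inflammatory cell arrays, against -2.35 to -1.72 on the liver arrays. The labels' extraction protocol speaks of tumor-infiltrating cells and of blood, and leaves the isolation of this fraction unclear. On 3 inflammatory cell arrays (ADSC 10, PBS 11 and PBS 13) the mean level of 9 exocrine pancreas genes was 8.35, 6.15 and 8.31, against -1.81 to 2.18 on the other 5 inflammatory cell arrays, so the results of that fraction are also given without them.

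Promoter windows were used for 7 of the 10 genes, 1 for each but Ly6c1, which has 2 annotated starts and of which the window listed first is printed. Csf1r, Adgre1 and Msr1 are not among the 7. Windows on the chromosome of Csf1r were left out for the 10 genes, but not in the count over the annotation below. Those of the 2 genes that passed the test between ADSC and PBS inflammatory cells, Ly6c1 and Lgals3, and of the 2 genes that were lower in inflammatory cells than in whole liver, Trem2 and Gpnmb, are printed below. Each is 300 bases long and spans the annotated start, is written 5' to 3' on the gene's strand, and comes from RefSeq on GRCm38.p6 (Ly6c1 chr15:75048788-75049087, minus strand; Lgals3 chr14:47373610-47373909, plus strand; Trem2 chr17:48346151-48346450, plus strand; Gpnmb chr6:49036268-49036567, plus strand). Capitals mark the core of the binding motif of PU.1, a transcription factor that macrophage development requires, searched as GAGGAA on either strand (TTCCTC as its complement), and the AP-1 motif TGANTCA. The searched motifs do not overlap each other.
Ly6c1: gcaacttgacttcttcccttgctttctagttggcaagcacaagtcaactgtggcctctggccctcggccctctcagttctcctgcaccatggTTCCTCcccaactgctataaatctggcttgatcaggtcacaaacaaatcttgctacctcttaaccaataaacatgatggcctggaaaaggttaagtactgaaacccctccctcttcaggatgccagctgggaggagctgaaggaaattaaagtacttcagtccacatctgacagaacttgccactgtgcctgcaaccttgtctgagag
Lgals3: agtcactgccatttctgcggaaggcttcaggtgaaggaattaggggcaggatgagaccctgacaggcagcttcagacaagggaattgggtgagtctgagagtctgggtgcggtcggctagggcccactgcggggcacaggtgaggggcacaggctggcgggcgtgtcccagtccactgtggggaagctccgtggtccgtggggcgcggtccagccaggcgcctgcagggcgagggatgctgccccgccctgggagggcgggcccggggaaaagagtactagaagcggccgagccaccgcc
Trem2: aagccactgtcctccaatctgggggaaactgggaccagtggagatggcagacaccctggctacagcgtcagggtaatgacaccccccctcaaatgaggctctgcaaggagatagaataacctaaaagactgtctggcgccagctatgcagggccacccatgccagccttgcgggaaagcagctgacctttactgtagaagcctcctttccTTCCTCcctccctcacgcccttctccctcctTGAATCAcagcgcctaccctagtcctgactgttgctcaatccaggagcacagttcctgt
Gpnmb: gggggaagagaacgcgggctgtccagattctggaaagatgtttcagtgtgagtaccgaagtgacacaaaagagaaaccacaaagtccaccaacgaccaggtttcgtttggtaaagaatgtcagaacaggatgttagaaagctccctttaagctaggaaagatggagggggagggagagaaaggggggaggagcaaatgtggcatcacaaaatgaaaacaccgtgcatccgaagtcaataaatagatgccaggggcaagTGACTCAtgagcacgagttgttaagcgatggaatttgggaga
In the printed window of Ly6c1 the PU.1 core began 158 bases before the start. The second Ly6c1 window (chr15:75048614-75048913, minus strand), which overlaps the first, held 2 cores, beginning 127 bases before and 13 bases after its own start. In the window of Trem2 the core began 40 bases before the start with an AP-1 match at 9 bases before it. The Gpnmb window held an AP-1 match 8 bases after the start, and the Lgals3 window held neither. Over the 7 genes, 3 held the PU.1 core (Ly6c1, Trem2 and Ctss) and 2 held the AP-1 motif (Trem2 and Gpnmb), against 28.3% and 7.81% of the 32851 promoter windows of the annotation. These matches describe the letters of the windows and do not show binding.

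The first comparison asked what ADSC treatment did to these genes in the inflammatory cells of the liver. All 10 estimates were below 0, and 2 genes passed the test: Ly6c1 was 5.54-fold lower and Lgals3 2.62-fold lower in ADSC than in PBS mice. Among the 20167 genes tested in this fraction, 1.07% passed as lower, and 47.2% had an estimate below 0. The median log2 difference of the 10 genes was -1.03, against 0.03 over all genes tested. On 8 of the 10 genes every ADSC array lay below every PBS array, which was so for 6.68% of all genes. The tests were made with limma on 4 arrays against 4, and p-values were Benjamini-Hochberg adjusted across every gene tested. In bulk RNA, fewer cells of a type and less RNA per cell cannot be told apart.

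**Figure D1:**
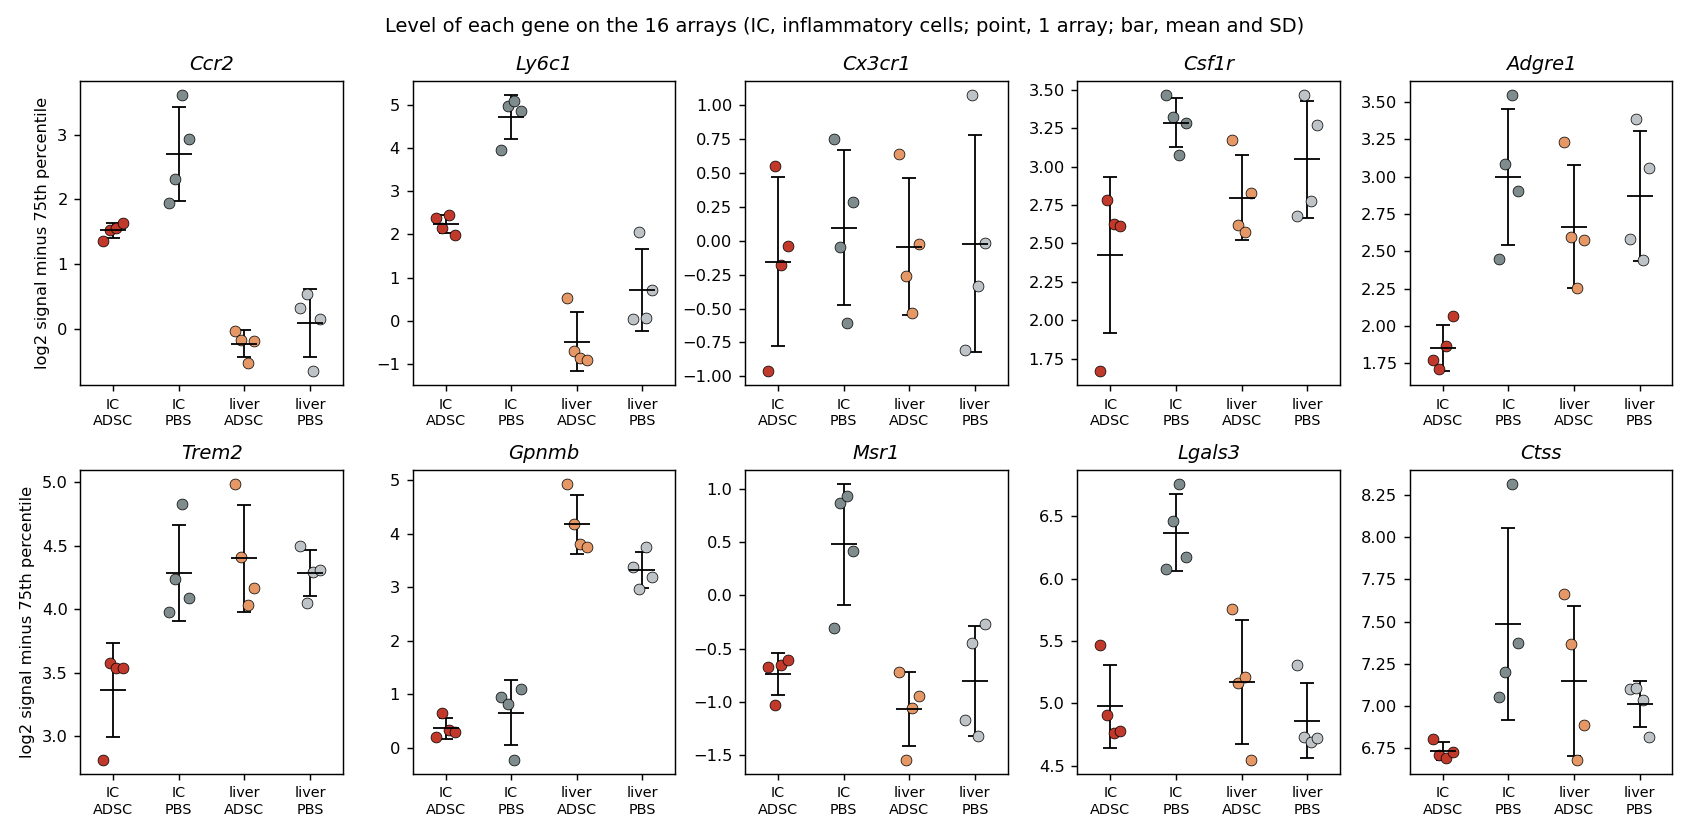
Level of each of the 10 genes on the 16 arrays, as the log2 signal minus the array's 75th percentile; each point is 1 array, the long bar the mean and the error bar the SD of 4 arrays, and the vertical scale differs between panels. In inflammatory cells (IC) the ADSC points of Ly6c1 lie between 2.00 and 2.45 and the PBS points between 3.96 and 5.08, while for Gpnmb all liver points, from 2.96 to 4.93, lie above all inflammatory cell points, from -0.23 to 1.09.

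Among the monocyte genes, Ccr2 encodes the receptor for Ccl2. Its level was 1.36, 1.53, 1.56 and 1.63 in ADSC inflammatory cells (arrays 7 to 10, the order used throughout) and 1.94, 2.32, 3.62 and 2.93 in PBS inflammatory cells (arrays 11 to 14). The groups did not overlap, and the PBS arrays were the more widely spread, but the log2 fold change of -1.18 ± 0.33 (SE) did not pass (limma, adjusted p = 0.128). Ly6c1 encodes a form of Ly6C, the antigen by which classical monocytes are sorted, but the gene is also expressed by endothelial cells and does not by itself mark monocytes. Ly6c1 stood at 2.38, 2.15, 2.45 and 2.00 in ADSC inflammatory cells, against 3.96, 4.96, 5.08 and 4.85 in PBS inflammatory cells. The gap between the highest ADSC and the lowest PBS array was wider than the spread within either group, and the gene fell by 2.47 ± 0.27 on the log2 scale (limma, adjusted p = 0.00268). The neighbouring gene Ly6c2 is nearly identical in sequence and has no probe named here, so the probe may report both. Cx3cr1, the fractalkine receptor of patrolling monocytes and of maturing macrophages, had levels of -0.96, 0.55, -0.18 and -0.04 in ADSC inflammatory cells and 0.75, -0.04, -0.61 and 0.29 in PBS inflammatory cells. The 2 groups overlapped throughout, and the 95% interval of the difference ran from -1.05 to 0.55, so these arrays leave the size of any change in Cx3cr1 undetermined within that interval.

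Csf1r encodes the receptor for colony-stimulating factor 1, on which macrophages depend. Its level was 1.67, 2.79, 2.62 and 2.61 in ADSC inflammatory cells, against 3.46, 3.32, 3.08 and 3.28 in PBS inflammatory cells. ADSC 7 lay well below the other ADSC arrays, and all 4 lay below the PBS arrays. The log2 fold change was -0.86 ± 0.27 (limma, adjusted p = 0.159), and without ADSC 7 it was -0.61. Adgre1, the gene of the adhesion receptor by which mouse macrophages are commonly stained, measured 1.77, 1.71, 1.86 and 2.07 in ADSC inflammatory cells and 2.45, 3.09, 3.55 and 2.90 in PBS inflammatory cells. The groups were again apart, and the log2 fold change of -1.14 ± 0.26 missed the threshold (limma, adjusted p = 0.0643).

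Of the genes of lipid-associated macrophages, Trem2 encodes the receptor that senses lipids and apoptotic cells. Levels of 2.81, 3.57, 3.53 and 3.53 were found in ADSC inflammatory cells, and of 3.98, 4.24, 4.83 and 4.09 in PBS inflammatory cells. The groups did not overlap, the log2 fold change being -0.92 ± 0.27 (limma, adjusted p = 0.137). For Gpnmb, a transmembrane glycoprotein of lysosome-rich macrophages, the values were 0.20, 0.65, 0.33 and 0.29 in ADSC inflammatory cells and 0.95, 0.81, -0.23 and 1.09 in PBS inflammatory cells. PBS 13 lay below all 4 ADSC arrays, and the difference was -0.29 with a 95% interval from -0.95 to 0.36. Msr1, a scavenger receptor that takes up modified lipoproteins, measured -0.68, -1.03, -0.66 and -0.60 in ADSC inflammatory cells, against -0.31, 0.86, 0.93 and 0.42 in PBS inflammatory cells. Its log2 fold change was -1.22 ± 0.29 (limma, adjusted p = 0.0772), with the groups apart.

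Lgals3 encodes galectin-3, a lectin that macrophages secrete in fibrosis and that is found in many other cells. Its levels were 5.46, 4.91, 4.76 and 4.77 in ADSC inflammatory cells and 6.08, 6.46, 6.76 and 6.17 in PBS inflammatory cells. Every ADSC array lay below the PBS arrays, and the gene fell by 1.39 ± 0.25 on the log2 scale (limma, adjusted p = 0.0259). Ctss, a lysosomal cysteine protease of antigen-presenting cells, was at 6.81, 6.71, 6.69 and 6.73 in ADSC inflammatory cells, against 7.05, 7.20, 8.32 and 7.37 in PBS inflammatory cells. The 4 ADSC arrays were close together, all below the lowest PBS array, and the log2 fold change of -0.75 ± 0.28 did not pass (limma, adjusted p = 0.209).

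At an unadjusted p under 0.05, 8 of the 10 genes were lower, against 9.08% of all genes. Within the slides that held both groups, 1 ADSC array against 1 PBS array, all 10 genes were lower in ADSC on slide 2 (median -0.55) and on slide 3 (median -1.16). Scan day 2 held the same 2 ADSC and 2 PBS arrays as these slides, so its result (all 10 lower, median -0.97) follows from theirs. On scan day 3, with 2 ADSC arrays and 1 PBS array, 8 were lower, while Cx3cr1 stood at 0.50 and Gpnmb at 0.53. With the slide as a fixed block the estimates rest on slides 2 and 3 alone, and no gene passed. Ly6c1 was at -2.20 (limma, adjusted p = 0.0774) and Lgals3 at -1.08 (limma, adjusted p = 0.0805). Without the 3 arrays high in pancreas genes, which leaves 3 ADSC and 2 PBS arrays, the median of the 10 genes was -1.04 and again none passed (Ly6c1 -2.58, adjusted p = 0.108; Lgals3 -1.27, adjusted p = 0.137, both limma). Lgals3 also missed the threshold on leaving out ADSC 8, ADSC 9, ADSC 10 or PBS 12 in turn, at adjusted p-values of 0.0684 to 0.106 (limma), while Ly6c1 passed whichever array was left out (0.0025 to 0.0213). In all, Lgals3 missed the threshold in 10 of 22 alternative settings, among them quantile normalization (adjusted p = 0.0808) and scan day as a term (adjusted p = 0.0909, both limma). Without PBS 11, Adgre1 (-1.33, adjusted p = 0.0429) and Msr1 (-1.48, adjusted p = 0.0273, both limma) passed as well.

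**Figure D2:**
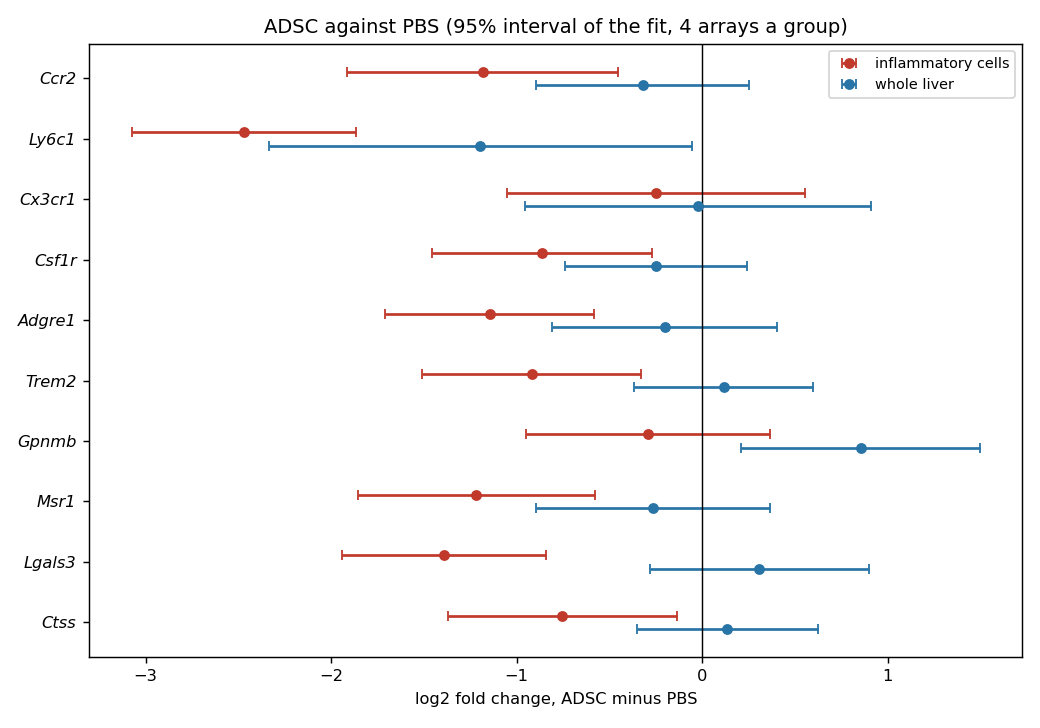
Log2 fold change of each gene, ADSC minus PBS, in inflammatory cells (upper point of each pair) and in whole liver (lower point); bars are the 95% interval of the fit of 4 arrays against 4. All 10 inflammatory cell estimates are below 0, with Ly6c1 at -2.47 farthest out, while the liver estimates scatter around 0, from -1.20 for Ly6c1 to 0.85 for Gpnmb.

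Other genes of the same cells were read from lists chosen from general knowledge, but with earlier results of these data known. Their counts are therefore no independent support for the 10 genes. Of 11 further genes of classical monocytes 9 were measured, all 9 had a lower estimate, and 3 passed in ADSC against PBS inflammatory cells, with a median of -1.01. These were F13a1, coagulation factor XIII subunit A (-1.98 ± 0.29, adjusted p = 0.011), Cd14, the lipopolysaccharide co-receptor (-1.99 ± 0.33, adjusted p = 0.0199), and Fcgr1, a high-affinity IgG receptor (-1.53 ± 0.27, adjusted p = 0.0245, all limma). F13a1 passed whichever single array was left out, whereas Cd14 missed the threshold without ADSC 9, ADSC 10 or PBS 12, and Fcgr1 without ADSC 8, ADSC 9, ADSC 10, PBS 12 or PBS 14. Over 22 alternative settings Cd14 missed the threshold in 8 and Fcgr1 in 9, both with scan day as a term (limma, adjusted p = 0.0575 and 0.085). Of 8 genes of patrolling monocytes 1 passed, Pglyrp1 (-2.46 ± 0.41, limma adjusted p = 0.0194), whose product is a granule protein of neutrophils, and the median of the list was -0.18. Pglyrp1 missed it without ADSC 9 or ADSC 10.

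Of 18 further genes of lipid-associated macrophages 16 were measured and 15 had a lower estimate, with a median of -0.82, but 1 passed. This was Ctsl, the lysosomal protease cathepsin L (-1.08 ± 0.20, limma adjusted p = 0.0323), and it missed the threshold in 11 of 22 alternative settings, among them quantile normalization (adjusted p = 0.105), scan day as a term (adjusted p = 0.128) and leaving out ADSC 8, ADSC 9, ADSC 10, PBS 12 or PBS 14. Tyrobp, the signalling partner of Trem2, stood at -1.32 ± 0.28 (adjusted p = 0.0522), Plin2, a lipid droplet coat protein, at -1.20 ± 0.26 (adjusted p = 0.0562), and Spp1, osteopontin, at -1.57 ± 0.38 (adjusted p = 0.0857, all limma). Of 11 genes of Kupffer cells, the resident macrophages of the liver, 8 had an estimate below 0 and 3 above it, with a median of -1.16, and 2 passed as lower, the iron exporter Slc40a1 (-1.59 ± 0.29, adjusted p = 0.0276) and Cd5l, a secreted protein of tissue macrophages (-1.71 ± 0.36, adjusted p = 0.0488, both limma). Clec4f, the C-type lectin that defines mouse Kupffer cells, was at -3.55 ± 0.90 (limma, adjusted p = 0.0948). The 3 above 0, named after their values were seen, were Xlr (0.56 ± 0.22), Cd163 (0.67 ± 0.44) and Timd4 (0.25 ± 0.39), and none of them passed. The mean level of the 16 lipid-associated macrophage genes was 2.69 to 3.07 in ADSC inflammatory cells, against 3.39 to 3.73 in PBS inflammatory cells. For the 11 Kupffer cell genes the group means were 0.57 in ADSC and 1.63 in PBS inflammatory cells. Every ADSC array lay below every PBS array there as well, while the array means of the patrolling monocyte genes overlapped. Cd5l missed the threshold in 15 of 22 settings, on leaving out any single array but PBS 11 among them, and Slc40a1 in 9 of 22, among them without ADSC 8, ADSC 9, PBS 12 or PBS 14. With the slide as a fixed block, the 7 list genes named above as passing had adjusted p-values of 0.0733 to 0.0874, and without the 3 arrays high in pancreas genes all 7 stood at 0.137 (limma). Of 8 ligands of these receptors 5 were below 0 and 3 above it, with a median of -0.45, and none passed, 3 being under an unadjusted p of 0.05 (Ccl2, Ccl12 and Csf1), and Ccl2, the ligand of Ccr2, was at -1.32 ± 0.35 (limma, adjusted p = 0.114, unadjusted p = 0.0034).

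Markers of other cells moved in the same arrays. The mean level of 15 neutrophil genes was 0.90 to 1.65 in ADSC inflammatory cells, against 3.87 to 5.78 in PBS inflammatory cells, and 12 of the 15 passed as lower, with a median of -3.77 over the list, though none did with the slide as a fixed block or without the 3 arrays high in pancreas genes (limma). Ly6c1 and Lgals3 are not exclusive to monocytes, and the part of these cells in their difference was not tested. The mean of 7 measured B cell genes was 2.30 to 3.16 in ADSC inflammatory cells, against 0.88 to 2.03 in PBS inflammatory cells, with a median log2 difference of 1.25 over the genes, and Cd22, a B cell receptor inhibitor, stood at 1.88 ± 0.43 (limma, adjusted p = 0.0702). The 10 endothelial genes, of interest for Ly6c1, had means of -1.48 to -0.09 in ADSC and -0.64 to -0.28 in PBS inflammatory cells, and these ranges overlapped.

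**Figure D3:**
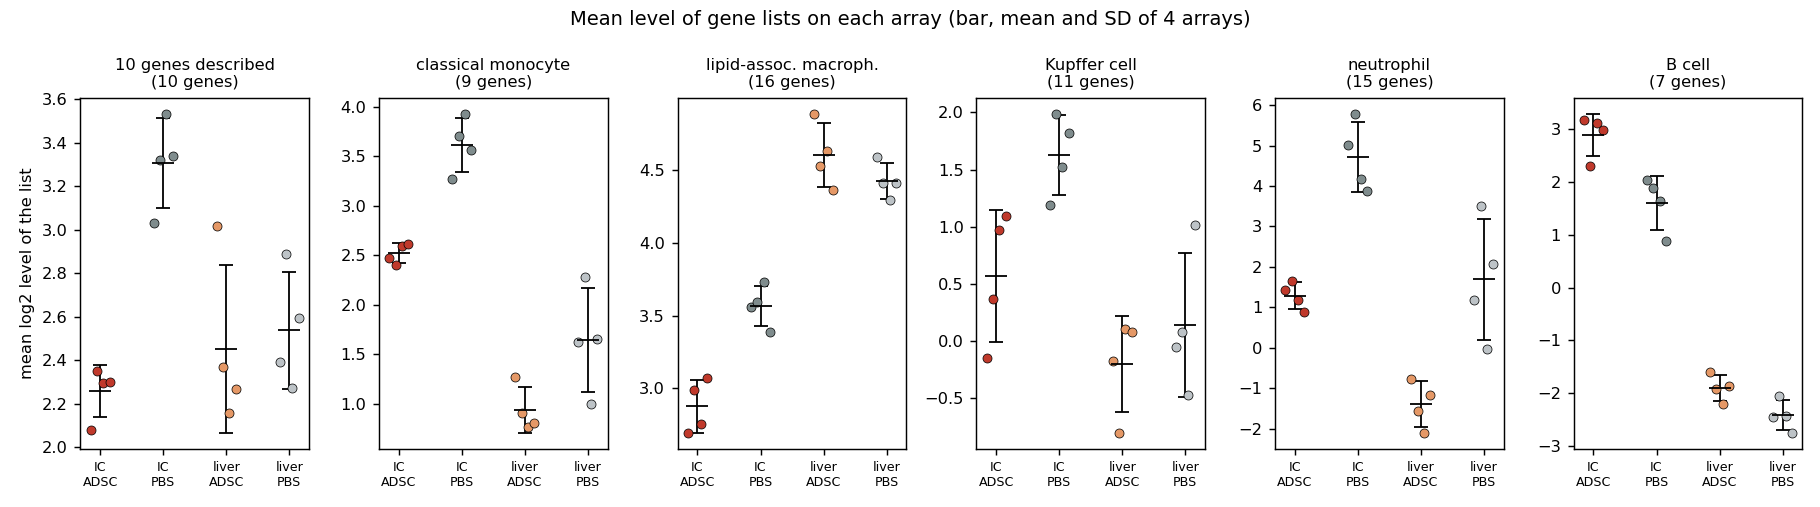
Mean log2 level, over the genes of 6 lists, on each array (points), with the mean and SD of 4 arrays per group (bars); the vertical scale differs between panels. In inflammatory cells (IC) the ADSC arrays lie below the PBS arrays for, among other lists, the 10 genes described (ADSC 2.08 to 2.35, PBS 3.03 to 3.53), classical monocyte genes (ADSC 2.40 to 2.62, PBS 3.27 to 3.93) and neutrophil genes (ADSC 0.90 to 1.65, PBS 3.87 to 5.78), and above them for B cell genes.

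In whole liver the comparison of ADSC with PBS gave no gene that passed, among the 10 or among all 17321 genes tested (0%, limma). The median of the 10 genes was -0.11, against 0.04 over all genes, with 6 estimates below 0 and 4 above (39.7% of all genes were below 0). At an unadjusted p under 0.05 there were 2 of the 10, Gpnmb higher and Ly6c1 lower, against 4.65% of all genes in either direction. With array weights, an alternative that gives noisy arrays less influence, 4 passed, Gpnmb higher and Ly6c1, Csf1r and Msr1 lower, alongside 1687 higher and 1371 lower genes in all.

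Gpnmb had levels of 4.93, 4.19, 3.81 and 3.76 in ADSC livers and 3.37, 2.96, 3.75 and 3.19 in PBS livers. All ADSC arrays lay above all PBS arrays, as for 1.67% of all genes, although ADSC 10 and PBS 13 were at nearly the same level. The log2 fold change was 0.85 ± 0.28 (limma, adjusted p = 0.998, unadjusted p = 0.0153), and it was 0.60 without ADSC 7. Ly6c1 measured 0.54, -0.68, -0.86 and -0.90 in ADSC livers, against 0.04, 2.05, 0.06 and 0.73 in PBS livers. ADSC 7 lay among the PBS arrays and PBS 12 stood apart at the top, with a log2 fold change of -1.20 ± 0.50 (limma, adjusted p = 0.998, unadjusted p = 0.0419), and of -0.75 without PBS 12. Neutrophil genes had a mean of -2.10 to -0.76 in ADSC livers and -0.02 to 3.51 in PBS livers, highest on PBS 12 as well.

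The other 8 genes overlapped between ADSC and PBS livers. Ccr2 was at -0.04, -0.18, -0.53 and -0.19 in ADSC livers and at 0.31, 0.53, -0.66 and 0.15 in PBS livers. Msr1 was at -0.72, -1.55, -1.06 and -0.95 in ADSC livers and at -1.17, -0.45, -1.32 and -0.27 in PBS livers. In both genes the lowest PBS array lay below at least one ADSC array. Trem2 ranged from 4.04 to 4.99 in ADSC livers and from 4.05 to 4.50 in PBS livers. Lgals3 ranged from 4.54 to 5.76 in ADSC livers and from 4.69 to 5.31 in PBS livers. The differences of these 8 genes lay between -0.32 for Ccr2 and 0.31 for Lgals3. Levels of Csf1r were 2.57 to 3.18 in ADSC livers and 2.68 to 3.47 in PBS livers, and those of Adgre1 were 2.25 to 3.23 in ADSC livers and 2.44 to 3.38 in PBS livers. Cx3cr1 lay between -0.53 and 0.64 in ADSC livers and between -0.81 and 1.08 in PBS livers, and Ctss between 6.68 and 7.66 in ADSC livers and between 6.81 and 7.10 in PBS livers. The ranges of these 4 genes overlapped between the groups. Slide 2, which held ADSC 7 and PBS 13, was the one slide with both liver groups, and there all 10 genes were higher in ADSC 7, by 0.40 to 1.18. On scan day 2, with 2 ADSC arrays (ADSC 7 and ADSC 9) and the same 1 PBS array, 9 of the 10 were higher in ADSC. Both batches thus rest on PBS 13. The direction in liver for Ccr2, Cx3cr1, Csf1r, Adgre1 and Msr1 thus turned within these batches, and that of Ly6c1 turned on slide 2 alone (0.48).

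Set against each other, the ADSC effects in inflammatory cells and in liver differed downwards for all 10 genes, with a median difference of -0.95, against -0.03 over all 22145 genes tested and an estimate below 0 for 52.2% of them. None of the 10 passed the interaction test (limma, all 16 arrays), for which 0.0316% of all genes passed. The largest of the 10 was that of Lgals3, at -1.70 ± 0.37 on the log2 scale (limma, adjusted p = 0.102, unadjusted p = 0.000286). It passed under normexp background correction, when genes had to be well above background on every array, and with array weights, which also passed Gpnmb. At an unadjusted p under 0.05 there were 7 of the 10, all downwards, against 6.7% of all genes: Ly6c1, Adgre1, Trem2, Gpnmb, Msr1, Lgals3 and Ctss. For Trem2 the difference was -1.03 ± 0.35 (limma, adjusted p = 0.349) and for Gpnmb it was -1.14 ± 0.43 (limma, adjusted p = 0.397). The difference was -1.27 ± 0.59 for Ly6c1, -0.94 ± 0.38 for Adgre1, -0.95 ± 0.42 for Msr1 and -0.89 ± 0.37 for Ctss. For the 3 genes above an unadjusted p of 0.05 it was -0.86 ± 0.44 (Ccr2), -0.61 ± 0.36 (Csf1r) and -0.23 ± 0.58 (Cx3cr1). Among the 16 further genes of lipid-associated macrophages, 4 had a lower and 12 a higher estimate in ADSC liver (median 0.20), and 15 of 16 differences between the effects were below 0 (median -1.07), Plin2 having the smallest p (-1.42 ± 0.30, limma adjusted p = 0.0959).

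Inflammatory cells were then set against whole liver, to see in which sample type each gene's RNA took the larger share. Of the 10 genes, 4 were higher in inflammatory cells and 2 were lower, against 48.9% and 35.5% of all 22145 genes, so these counts are no larger as shares than those among all genes. Ly6c1 was 10.2-fold higher (log2 fold change 3.36 ± 0.30, adjusted p = 2.4e-08) and Ccr2 4.56-fold higher (2.19 ± 0.22, adjusted p = 1.3e-07, both limma). The 8 inflammatory cell arrays of Ccr2 lay between 1.36 and 3.62 and the 8 liver arrays between -0.66 and 0.53, a gap upwards that 33.9% of all genes showed, while for Ly6c1 the PBS 12 liver array, at 2.05, reached just above the lowest inflammatory cell array at 2.00. Msr1 (0.80 ± 0.21, adjusted p = 0.00207) and Lgals3 (0.66 ± 0.18, adjusted p = 0.00339, both limma) were also higher.

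Gpnmb was 9.40-fold lower in inflammatory cells than in whole liver (-3.23 ± 0.21, limma adjusted p = 7.9e-10). Its levels lay between -0.23 and 1.09 on the 8 inflammatory cell arrays and between 2.96 and 4.93 on the 8 liver arrays, with no overlap, as for 23.9% of all genes in this direction. Trem2 was lower by less, with a log2 fold change of -0.52 ± 0.18 (limma, adjusted p = 0.0116) and overlapping arrays. Cx3cr1 (0.00 ± 0.29), Csf1r (-0.07 ± 0.18), Ctss (0.03 ± 0.18) and Adgre1 (-0.34 ± 0.19) did not pass. The median over all genes was 0.35 in this comparison and between 0.13 and 0.70 under the other scalings of the arrays, so differences as small as those of these 4 genes and of Trem2 depend on the scaling. Under quantile normalization or a percentile over detected probes Trem2 no longer passed.

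**Figure D4:**
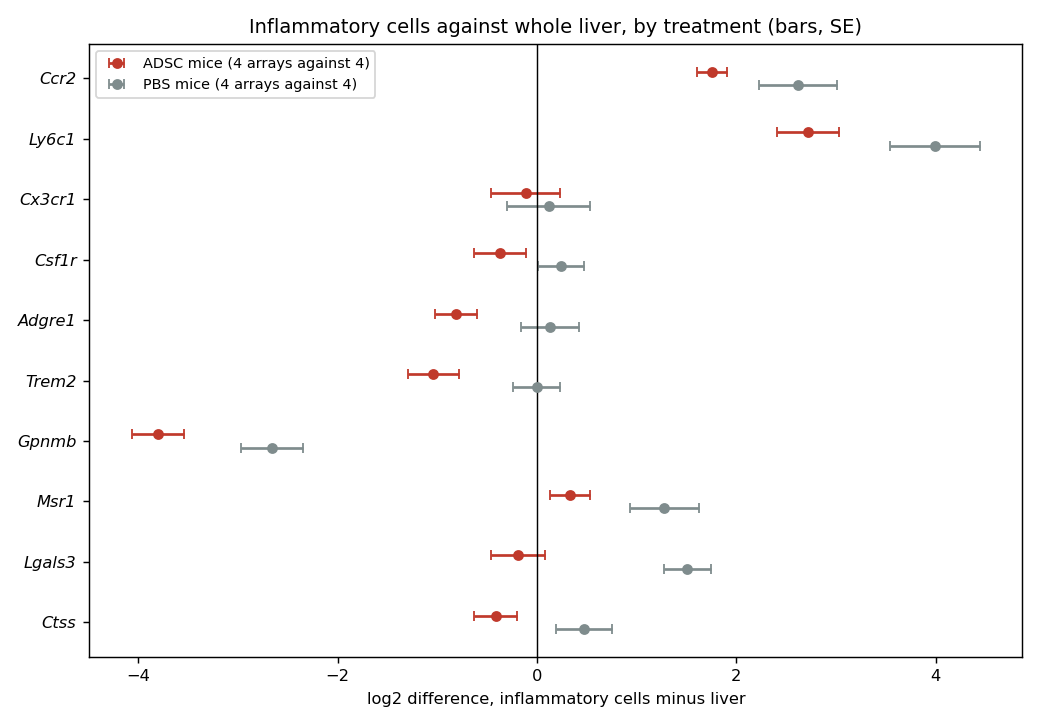
Log2 difference of each gene, inflammatory cells minus whole liver, in ADSC mice (upper point of each pair) and in PBS mice (lower point); bars are the SE of 4 arrays against 4. Ccr2 and Ly6c1 lie to the right and Gpnmb to the left in both, whereas Lgals3 stands at -0.19 in ADSC mice and at 1.51 in PBS mice.

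Within each treatment, Ccr2 and Ly6c1 passed as higher and Gpnmb as lower in both ADSC and PBS mice. For Gpnmb the difference was -3.81 ± 0.26 in ADSC mice and -2.66 ± 0.31 in PBS mice. Lgals3 was at -0.19 ± 0.27 in ADSC mice (limma, adjusted p = 0.525) and at 1.51 ± 0.23 in PBS mice (limma, adjusted p = 0.000233), so it passed as higher on the PBS arrays and not on the ADSC arrays. The same held for Msr1, at 0.33 ± 0.20 in ADSC mice (limma, adjusted p = 0.161) and 1.28 ± 0.34 in PBS mice (limma, adjusted p = 0.00699). Trem2 was at -1.04 ± 0.26 in ADSC mice (adjusted p = 0.00422) and at -0.005 ± 0.23 in PBS mice (adjusted p = 0.986), and Adgre1 at -0.81 ± 0.21 in ADSC mice (adjusted p = 0.00615) and at 0.13 ± 0.30 in PBS mice (adjusted p = 0.706, all limma). The tests of these differences between treatments are the interaction values above, which did not pass. By group mean, PBS inflammatory cells stood highest for 8 of the 10 genes, and ADSC livers for Trem2 and Gpnmb. The share of all genes with PBS inflammatory cells highest was not counted, and 48.9% of all genes passed as higher in inflammatory cells than in liver. For Trem2, ADSC livers, PBS livers and PBS inflammatory cells overlapped each other, and ADSC inflammatory cells lay below all of them. For Ccr2, PBS inflammatory cells, ADSC inflammatory cells and then both liver groups followed each other, with overlap between the liver groups alone. For Lgals3, PBS inflammatory cells lay above the other 3 groups, which overlapped, and for Adgre1, ADSC inflammatory cells lay below the other 3, which overlapped. For Cx3cr1 all 4 groups overlapped.

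The further lists split in the same comparison. Of 9 classical monocyte genes 7 were higher and 2 lower in inflammatory cells than in liver (median 2.35), the higher ones including F13a1 (3.46 ± 0.28, adjusted p = 7.2e-09), while Fn1, fibronectin, which hepatocytes also make, was lower (-3.43 ± 0.22, adjusted p = 4.1e-10, both limma). All 8 patrolling monocyte genes were higher (median 2.72). Of 16 lipid-associated macrophage genes 12 were lower and 1 higher, with a median of -1.52, and the lower ones were led by Ctsl (-2.68 ± 0.12, adjusted p = 9.4e-12), the lysosomal acid lipase gene Lipa (-2.63 ± 0.15, adjusted p = 1.8e-10) and Lpl, lipoprotein lipase (-2.20 ± 0.15, adjusted p = 1.0e-09, all limma). Several of these 16, such as Lipa and the cathepsins, are also expressed by hepatocytes, and the mean of the hepatocyte list was higher in liver as given above. The part of hepatocytes in the level of Gpnmb and Trem2 in liver was not tested. The 8 dissociation and stress genes, such as Fos and Jun, had means of 4.95 to 6.43 on the inflammatory cell arrays, against -0.32 to 0.47 on the liver arrays.

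Several genes had more than 1 probe. Trem2 had 2 and Msr1 had 3, and all of them were lower in ADSC than in PBS inflammatory cells, with log2 differences of -0.92 and -0.89 for Trem2 and of -1.22, -1.06 and -0.73 for Msr1. The 3 probes of Csf1r differed, at -0.86, -0.48 and -0.02 from the brightest to the dimmest. For inflammatory cells against liver, the second Adgre1 probe (A_52_P364727), which was dim, was well above background on 6 of the 8 inflammatory cell arrays and on 2 of the 8 liver arrays. Its difference of 1.68 ± 0.22, where the bright probe (A_51_P251768) read -0.34 ± 0.19, therefore sets mostly measured levels against liver values that lay mostly at background. The second Msr1 probe read -0.17 ± 0.26, against 0.80 and 0.92 for the others, and the dimmest Csf1r probe 0.81 ± 0.13, against -0.07 and -0.25. The second probes of Cx3cr1 and Gpnmb were not well above background on any array. Averaging the probes of a gene turned Adgre1 to 0.67 (limma, adjusted p = 0.00192), a value that includes this dim probe.

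**Figure D5:**
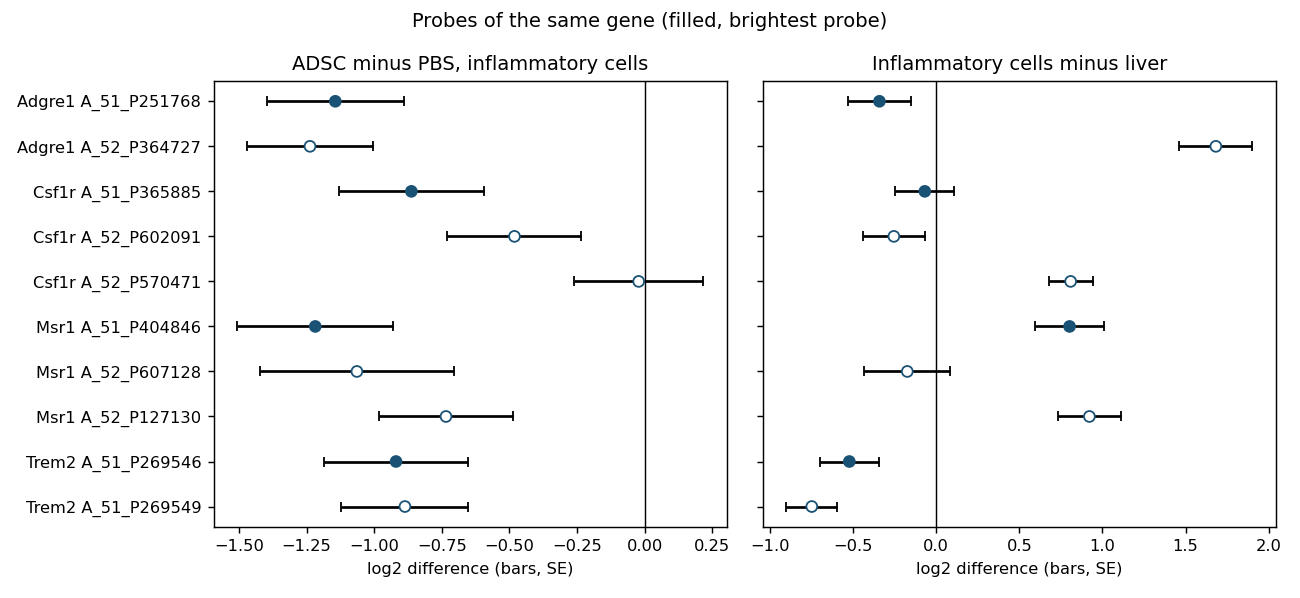
Log2 differences of the single probes of the 4 genes with several measured probes, ADSC minus PBS in inflammatory cells (left panel) and inflammatory cells minus liver (right panel); filled points are the brightest probe of a gene, open points its other probes, and bars the SE. The probes of Trem2 and Msr1 lie on the same side of 0 on the left, whereas the 2 Adgre1 probes stand at -0.34 and 1.68 on the right, the second of them well above background on 2 of the 8 liver arrays.

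Across the 16 arrays, after the mean of each sample type had been subtracted, 39 of the 45 pairs of the 10 genes had a positive Pearson correlation, with a median of 0.64 and a range from -0.22 to 0.92. These are descriptions, since the arrays share treatment groups and labelling. Adgre1 and Msr1 were the closest pair (0.92), and Gpnmb stood farthest from the others, at -0.22 with Ccr2 and 0.32 at most, with Cx3cr1. Among the 12824 genes that were well above background on all 16 arrays, the pattern of Ly6c1 was most like those of D86232 (0.99), Clec4a2 (0.96) and F13a1 (0.96), and the pattern of Adgre1 like those of Ms4a6d (0.98), AB026047 (0.98) and Pqlc3 (0.96). D86232 and AB026047 are names for which no gene symbol was found, and whether D86232 reports Ly6C itself was not tested. Pycard, the inflammasome adaptor ASC, was nearest to Ccr2 (0.95), and Ctsc, a lysosomal protease, nearest to Msr1 (0.94). For Csf1r, Trem2 and Lgals3 the nearest genes were BC038320 (0.94), Dnase1l1 (0.92) and Ostm1 (0.93). Gpnmb was best matched by Pld3, a lysosomal nuclease (0.85), and Cx3cr1 by Arhgap27 (0.90). The mean of the 10 genes was followed most closely by Hacd4 (0.98), Pqlc3 (0.97), Ms4a6c (0.97), Oas1f (0.97) and Oas1a (0.96).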

How the data were processed

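Total RNA of whole liver and of hepatic inflammatory cells, 4 samples in each of 4 groups, was labelled with Cy3 and hybridised to Agilent arrays with 43379 non-control spots of 41174 probes. The processed signal is an intensity that the authors deposited in the scanner files, made with background subtraction by Feature Extraction 10.5.1.1, per the file headers. The deposited value table holds the same intensities (largest relative difference 0). From the log2 of this intensity, the 75th percentile of all non-control spots of an array was subtracted, outlier-marked spots were left out, and symbols came from RefSeq GRCm38.p6 by accession (23374 probes, 16535 symbols). Genes entered a fit if the brightest probe was marked well above background on 4 or more of its arrays.

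Comparisons were fitted with limma 3.58.1 in R 4.3.3 (lmFit, eBayes, Benjamini-Hochberg adjusted p-value under 0.05): ADSC against PBS within each sample type (8 arrays), and the difference of these effects and inflammatory cells against liver over 16 arrays. Alternatives were normexp background correction (offset 50), quantile normalization, a percentile over detected probes, other filters, averaged probes, slide, scan day and replicate number as terms, array weights, single treatments, and leaving out each array or the 3 arrays high in pancreas genes. The planned normexp alternative named the mean spot signal; the median spot signal was used. The fit was tested on simulated data.

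All 10 genes are named in each comparison; of other lists, where described, counts, the median or the range of their mean per array are given with genes of smallest p (up to 5 for monocyte, macrophage, ligand and Kupffer lists, 3 otherwise), and likeness by the 3 highest correlations per gene, or 5 for the mean. The genes and lists were chosen with earlier results of these data known. The number of arrays limits the precision.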

Additional observations from a re-analysis of the deposited data

Results flagged for a closer look

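Single arrays that stood apart from the other 3 of their group, by Dixon's criterion for the gap to the nearest array, were looked for in 100 groups, the 40 groups of the genes described among them. There were 6, 5 of them in these 40, where chance gives about 1 in 20. The groups share arrays and the genes are correlated, so the flags are not independent of each other and their number is not read as an excess. In ADSC livers, Ly6c1 was 0.54 on ADSC 7, against -0.90 to -0.68 on the other 3 arrays. In ADSC inflammatory cells, Csf1r was 1.67 on ADSC 7, against 2.61 to 2.79, and Trem2 was 2.81 on the same array, against 3.53 to 3.57. The mean of 6 erythroid genes on this array was 0.77, against 3.09 to 3.11 on the other ADSC inflammatory cell arrays. Msr1 was -1.03 on ADSC 8, against -0.68 to -0.60. In PBS livers, Lgals3 was 5.31 on PBS 11, against 4.69 to 4.73.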

How the results depend on the processing

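The number of the 10 genes lower in ADSC than in PBS inflammatory cells was 2, and it was 4 with normexp background correction, 1 with quantile normalization, 1 with a percentile over detected probes, 1 with no filter on dim probes, 5 with the slide as a random block, 0 with the slide as a fixed block, 1 with scan day as a term, 8 with array weights, 6 in a fit of all 16 arrays, and 0 without the 3 arrays high in pancreas genes. It was 3 (Adgre1 added) with averaged probes and when genes had to be above background on every array. Leaving out 1 array at a time gave 1 to 4, the 4 without PBS 11. Of these settings, Ly6c1 missed the threshold with the slide as a fixed block and without the 3 arrays, both of which leave fewer degrees of freedom. Over all genes, 27 were higher and 216 lower, against 3080 and 2167 with array weights and 0 in either direction with the slide as a fixed block or without the 3 arrays. Not all array weight estimates converged, and the cause of the larger counts was not tested. In liver the number of the 10 genes that passed was 0, and 4 with array weights. For the difference between the effects it was 0, and 1 with normexp background correction, 1 when genes had to be above background on every array, and 2 with array weights. For inflammatory cells against liver, 4 genes were higher, 2 with ADSC arrays alone (Ccr2 and Ly6c1) and 5 with averaged probes (Adgre1 added). The number lower was 2. It was 1 (Gpnmb) with quantile normalization, with normexp and quantile normalization, with the percentile over detected probes and with PBS arrays alone. It was 3 (Adgre1 added) with normexp background correction, with array weights, with ADSC arrays alone and without the PBS 13 inflammatory cell array.

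The directions that turned belonged to differences that had not passed, except for Lgals3 in inflammatory cells against liver, -0.19 with ADSC arrays alone. For the ADSC effect in liver, the slide as a fixed block gave 0.62 for Ccr2, 0.48 for Ly6c1, 0.98 for Cx3cr1, 0.40 for Csf1r, 0.79 for Adgre1 and 0.60 for Msr1, and scan day as a term gave 0.37 for Ccr2, 0.39 for Cx3cr1, 0.10 for Csf1r, 0.30 for Adgre1 and 0.43 for Msr1. Only slide 2 held both liver groups, so the fixed-block values are the slide 2 differences between ADSC 7 and PBS 13. The scan day values are those of scan day 2, with 2 ADSC arrays against the same 1 PBS array. For ADSC in liver, Cx3cr1 was also at 0.14 with the slide as a random block and 0.10 with averaged probes. For inflammatory cells against liver, Adgre1 was 0.00789 with the percentile over detected probes, 0.13 with PBS arrays alone and 0.67 with averaged probes, one of which was mostly at background in liver. Csf1r was 0.28 with the percentile over detected probes, 0.24 with PBS arrays alone, 0.16 with averaged probes, 0.31 with quantile normalization and 0.33 with normexp and quantile normalization. Ctss was -0.42 with ADSC arrays alone, -0.0226 with array weights, -0.11 with normexp, -0.0116 with quantile normalization and -0.0691 without the 3 arrays high in pancreas genes. Cx3cr1 was -0.11 with ADSC arrays alone, -0.027 with normexp, -0.0287 with normexp and quantile normalization, -0.0206 with quantile normalization, -0.000887 with scan day as a term and -0.0056 without the 3 arrays. On leaving out 1 array at a time, Cx3cr1 ranged from -0.49 to 0.0176 for ADSC in inflammatory cells, from -0.29 to 0.34 for ADSC in liver, from -0.59 to 0.0406 for the difference of the effects and from -0.13 to 0.18 for inflammatory cells against liver. The same ranges were -0.13 to 0.0572 for Csf1r and -0.11 to 0.11 for Ctss in inflammatory cells against liver, and -0.0805 to 0.24 for Trem2 and -0.0356 to 0.29 for Ctss for ADSC in liver. The cause of these turns was not tested.

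The titles give liver and inflammatory cell samples the same numbers, and whether these mark the same animals is not stated. Of 8 same-numbered liver and inflammatory cell samples 2 correlated above 0.1 in their deviations (range -0.14 to 0.16), and 2 matched their own number best, so the number was not used as a pairing. With replicate number as a block, 0 of the 10 genes passed for the difference of the effects, and 4 were higher and 2 lower in inflammatory cells than in liver, as without it. The 4 arrays per group limit the precision, and all 10 probes were well above background.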

Other observations

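Nr4a1, the transcription factor that patrolling monocytes need and an immediate-early gene of many stimulated cells, was 7.51 to 8.62 on the ADSC inflammatory cell arrays and 7.88 to 8.88 on the PBS inflammatory cell arrays, against 1.07 to 1.37 on the ADSC liver arrays and 1.18 to 1.56 on the PBS liver arrays. Its difference between the sample types was 7.00 ± 0.18 on the log2 scale (limma, adjusted p = 2.1e-13). The dissociation and stress genes were higher in the same arrays, and how much of the level of Nr4a1 goes with them was not tested.

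Among the ligands, Cx3cl1, the ligand of Cx3cr1, was 12.2-fold lower in inflammatory cells than in liver (-3.60 ± 0.27, adjusted p = 3.2e-09), and Il34, a second ligand of Csf1r, was 4.70-fold lower (-2.23 ± 0.16, adjusted p = 2.1e-09, both limma). Csf2, the gene of granulocyte-macrophage colony-stimulating factor, was well above background on all inflammatory cell arrays (0.10 to 0.93) and on 1 of the 8 liver arrays.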
